A study of Mus musculus with 12 samples.

Results

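The 10 glutamate receptor genes were chosen by name: 4 subunits of the NMDA receptor (Grin1, Grin2a, Grin2b and Grin2c), the 4 subunits of the AMPA receptor (Gria1 to Gria4), the kainate receptor subunit Grik2 and the metabotropic receptor Grm4. Of the 10 genes listed, 9 were measured, among 18193 genes in all. Grin1 was not analysed here. The cultures were cerebellar granule neurons (CGNs) from 7-day-old pups of the mouse strain B10.RIII, grown for 3 days. Pups were either wild-type (Ifnb+/+) or lacked the interferon-β gene (Ifnb-/-), and cultures of each genotype were left untreated or received 100 U/ml of recombinant interferon-β (rIFN-β) for the last 24 hours. Each of the 4 groups had 3 arrays, 12 in all. The labels do not say whether the 3 arrays of a group came from separate litters or cultures, so p-values measure only the spread between these arrays. Values are log2 RMA values, on which a difference of 1 is a 2-fold difference.

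Glutamate is the transmitter of the mossy fibers that excite granule neurons, and granule neurons release it in turn onto Purkinje cells. AMPA and kainate receptors are cation channels that open quickly when glutamate binds, while NMDA receptors also need a co-agonist and depolarization to open and pass calcium. Metabotropic receptors act through G proteins. Young granule neurons carry NMDA receptors with the GluN2B subunit (Grin2b), and subunits GluN2A (Grin2a) and GluN2C (Grin2c) replace much of it as the cells mature and receive synapses.

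The arrays carried the genes of granule neurons, with mean log2 values of 12.56 for Zic1, 12.02 for Neurod1 and 11.68 for Nfix over all arrays. The 18 of 19 granule neuron markers measured had mean levels of 7.98 to 8.45 per array. Markers of other cells were also present, among them Fabp7 of astrocytes at 11.23, Gad1 of GABAergic neurons at 10.44, Mbp of oligodendrocytes at 10.31 and Tyrobp of microglia at 8.96. Of 17 interferon-stimulated genes measured, 15 were higher with rIFN-β in Ifnb+/+ and 11 in Ifnb-/- cultures at an adjusted p under 0.05 (limma). Of all genes, 3.14% and 1.67% passed this threshold. At an unadjusted p under 0.05, 16 and 15 of the 17 were higher, where 3619 and 2657 of all 18193 genes were higher or lower. The median log2 differences of the 17 were 4.74 and 3.35. Among untreated Ifnb+/+ arrays, replicate 1 was least like the others: its values correlated at 0.971 with replicate 2 and 0.988 with replicate 3. Replicates 2 and 3 correlated at 0.993. Pairs of untreated Ifnb-/- arrays correlated at 0.998, and pairs within the treated groups at 0.983 to 0.997. The median gene had an SD of 0.201 across the untreated Ifnb+/+ arrays and 0.0872 across the untreated Ifnb-/- arrays. In a culture, fewer cells of a type and less RNA per cell cannot be told apart.

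Promoters are shown for the gene that passed the test with rIFN-β, Grik2, and for Gria2 and Gria4, with Ifit1, an interferon-stimulated gene, as a comparison. Each run holds 300 bases around a RefSeq start of the gene (build GRCm38.p6), most of them before it, in the direction of transcription, and 4 of the 9 genes measured had an entry. Grik2 is at chr10:49788705-49789004, Gria2 at chr3:80802786-80803085 and Gria4 at chr9:4796185-4796484, all on the minus strand, and Ifit1 is at chr19:34640639-34640938 on the plus strand. The Grik2 and Gria2 windows lie inside the gene spans given below, downstream of the outermost start, so bases at that start are not shown. Capitals mark matches on either strand to 3 motifs. The first is GAAA, any 2 bases and GAAA again, the core bound by interferon-activated factors. The second is TTC, any 3 bases and GAA, the gamma-activated site. The third is TGACG, the cyclic AMP response core.
Grik2: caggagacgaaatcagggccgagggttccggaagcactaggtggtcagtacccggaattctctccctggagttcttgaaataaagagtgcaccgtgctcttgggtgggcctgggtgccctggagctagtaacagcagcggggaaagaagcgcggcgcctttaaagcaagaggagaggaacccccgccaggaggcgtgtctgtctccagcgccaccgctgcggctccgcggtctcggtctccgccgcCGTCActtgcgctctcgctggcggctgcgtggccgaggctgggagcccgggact
Gria2: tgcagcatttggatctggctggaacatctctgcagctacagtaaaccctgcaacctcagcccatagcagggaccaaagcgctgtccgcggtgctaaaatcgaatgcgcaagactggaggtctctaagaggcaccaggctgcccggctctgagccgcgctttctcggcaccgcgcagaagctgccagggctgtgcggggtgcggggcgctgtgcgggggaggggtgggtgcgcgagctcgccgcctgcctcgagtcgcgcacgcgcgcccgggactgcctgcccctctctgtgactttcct
Gria4: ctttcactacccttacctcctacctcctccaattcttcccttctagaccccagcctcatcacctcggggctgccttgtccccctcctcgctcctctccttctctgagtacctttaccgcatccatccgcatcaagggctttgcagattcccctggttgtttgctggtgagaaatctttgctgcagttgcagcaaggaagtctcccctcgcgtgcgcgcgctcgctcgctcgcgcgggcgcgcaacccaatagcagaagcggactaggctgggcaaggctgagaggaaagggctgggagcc
Ifit1: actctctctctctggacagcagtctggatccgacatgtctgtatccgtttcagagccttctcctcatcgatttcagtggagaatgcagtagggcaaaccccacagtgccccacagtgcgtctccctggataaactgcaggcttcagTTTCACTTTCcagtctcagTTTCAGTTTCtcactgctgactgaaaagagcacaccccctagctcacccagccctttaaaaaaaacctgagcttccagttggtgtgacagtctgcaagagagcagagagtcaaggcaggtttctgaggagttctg
The Ifit1 window held 2 matches to the interferon core, and 3.44% of all 32851 promoters held at least 1. The Grik2 window held 1 match to TGACG and none of the other 2 motifs, and 20.8% of all promoters held at least 1 match to TGACG. The Gria2 and Gria4 windows held none of the 3 (the gamma-activated site was found in 8.3% of all promoters). A match is a description of letters and not a measured binding site.

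The first comparison asked how receptor expression differed between Ifnb-/- and Ifnb+/+ neurons without treatment. Grin2b, Gria2, Gria4 and Grik2 had values 1.72 to 2.30 times as high in Ifnb-/- cultures, with no overlap between the groups. No member passed the test after adjustment over all genes (limma, adjusted p of 0.122 to 0.951), where 0.115% of all genes were called. At an unadjusted p under 0.05, 4 of the 9 members were higher and none lower, against 8.4% of all genes higher and 12.8% lower. Likewise 4 of 9 were higher without overlap between groups, against 10.1% of all genes. The median log2 difference of the 9 genes was 0.78, beside a median of -0.09 over all genes.

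**Figure D1:**
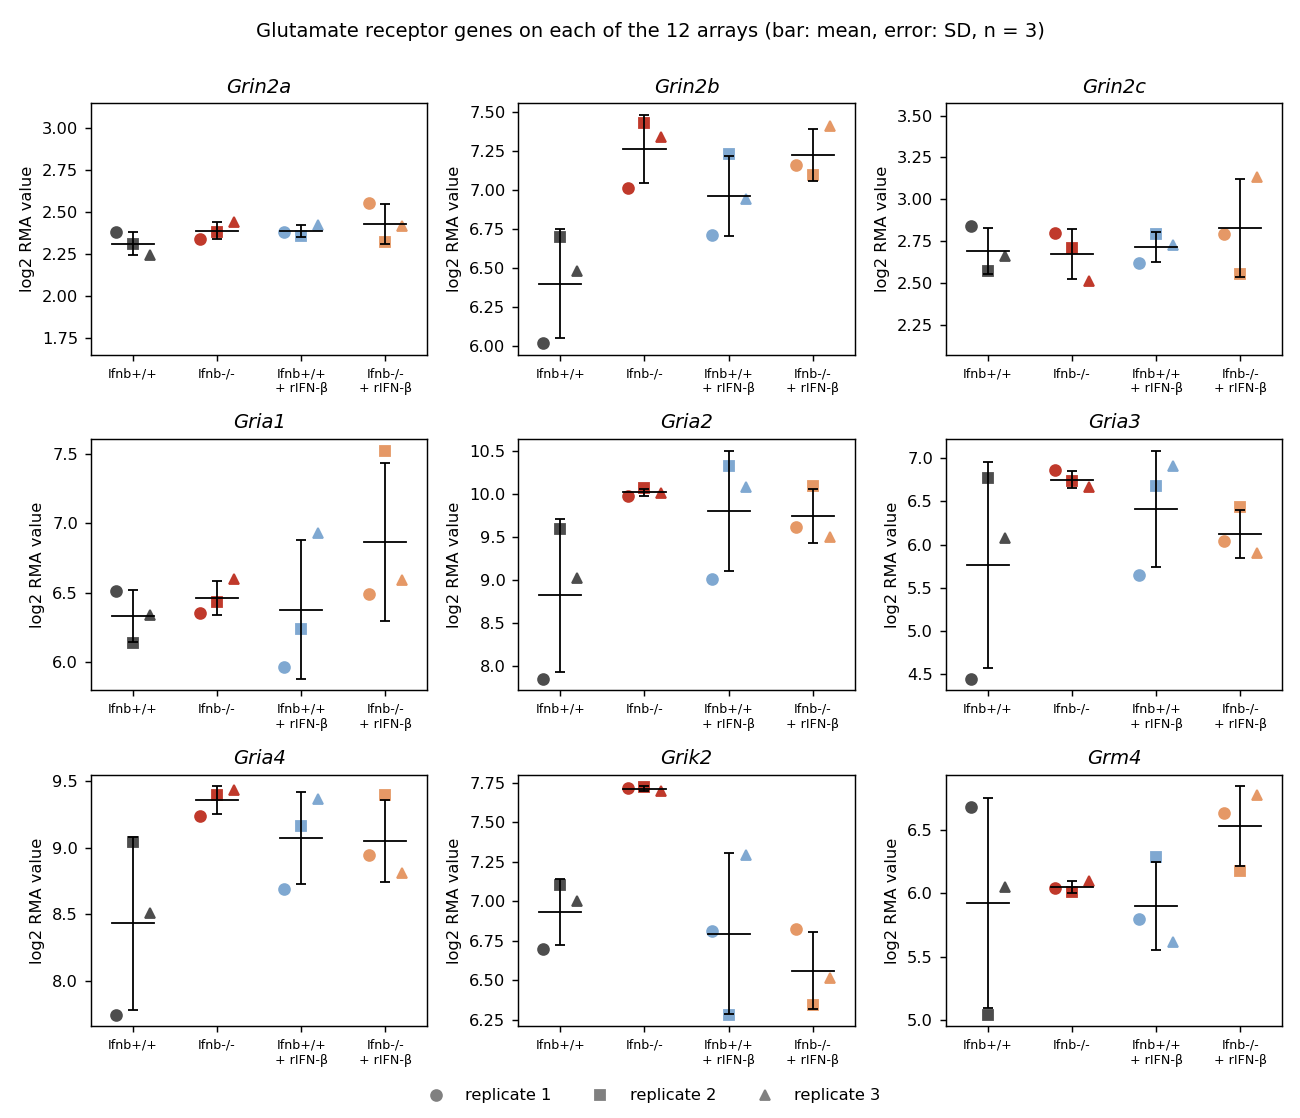
Log2 RMA values of the 9 measured receptor genes (vertical axis, own scale in each panel) on each array, by group on the horizontal axis. Points are arrays, with the shape giving the replicate number, horizontal bars are means and error bars are SD (n = 3). The untreated Ifnb-/- arrays lie above all untreated Ifnb+/+ arrays for Grin2b, Gria2, Gria4 and Grik2.

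Among NMDA receptor subunits, Grin2b encodes GluN2B, which slows channel closing (gene at chr6:135713221-136173615). Its log2 values were 6.02, 6.70 and 6.48 in untreated Ifnb+/+ and 7.02, 7.43 and 7.34 in untreated Ifnb-/- arrays. All Ifnb-/- values lay above all Ifnb+/+ values. The difference was 0.86 (SE 0.19), the smallest p of the members, with an adjusted p of 0.122 (limma). Without untreated Ifnb+/+ replicate 1 it was 0.67, with an adjusted p of 0.269. The gene has 3 further probe sets, and they were 1.09, 0.21 and 0.11 higher in Ifnb-/-, each with overlap between the groups.

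Grin2a and Grin2c, the subunits of mature granule neurons, had low values on all arrays. Grin2a ranged from 2.24 to 2.55 and Grin2c from 2.51 to 3.13, both below the mean of 5 that served as a filter on low values in an alternative. Their differences between untreated genotypes were 0.08 (SE 0.10) and -0.02 (SE 0.15). At such values the probe sets may not report a level, and detection calls were not used here.

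Among AMPA receptor subunits, Gria2 encodes GluA2, which keeps the channel closed to calcium when its RNA is edited (gene at chr3:80681450-80804227). The log2 values of Gria2 were 7.85, 9.60 and 9.02 in untreated Ifnb+/+ and 9.98, 10.07 and 10.02 in untreated Ifnb-/- arrays. The 3 Ifnb-/- values lay within 0.1 of each other and above the widely spread Ifnb+/+ values. The difference was 1.20 (SE 0.40, adjusted p = 0.185, limma), or 2.30 times. All 3 probe sets of Gria2 showed higher values without overlap, by 1.20, 1.21 and 0.97. Without untreated Ifnb+/+ replicate 1, the lowest array, the difference was 0.71 and the adjusted p 0.575.

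Gria4 encodes GluA4, a subunit with fast kinetics (gene at chr9:4417893-4796234). Gria4 had log2 values of 7.75, 9.04 and 8.51 in untreated Ifnb+/+ and 9.24, 9.40 and 9.43 in untreated Ifnb-/- arrays. These groups did not overlap either. The difference was 0.92 (SE 0.28, adjusted p = 0.183, limma), and 0.58 without untreated Ifnb+/+ replicate 1, with an adjusted p of 0.502. The dimmest probe set of Gria4 was 0.81 higher without overlap (SE 0.44, adjusted p = 0.319, limma over all probe sets). The remaining one was 0.77 higher, with overlap between the groups (SE 0.39, adjusted p = 0.292, limma over all probe sets).

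Gria3 encodes GluA3 (gene at chrX:41400819-41678601). Gria3 had log2 values of 4.45, 6.77 and 6.08 in untreated Ifnb+/+ and 6.86, 6.74 and 6.66 in untreated Ifnb-/- arrays. Replicate 2 of Ifnb+/+ lay among the Ifnb-/- values and replicate 1 far below them. The difference of 0.99 (SE 0.47, adjusted p = 0.249, limma) was 0.33 without untreated Ifnb+/+ replicate 1. Gria1, which encodes GluA1, had values of 6.51, 6.14 and 6.34 in untreated Ifnb+/+ and 6.35, 6.43 and 6.60 in untreated Ifnb-/- arrays, a difference of 0.13 (SE 0.28) with overlapping groups.

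Grik2 encodes the kainate receptor subunit GluK2, which can form channels alone (gene at chr10:49093680-49790161). Its log2 values were 6.70, 7.10 and 7.00 in untreated Ifnb+/+ and 7.72, 7.72 and 7.70 in untreated Ifnb-/- arrays. The difference was 0.78 (SE 0.22, adjusted p = 0.160, limma), and 0.66 without untreated Ifnb+/+ replicate 1, with an adjusted p of 0.453. Its second probe set was also higher without overlap, from 6.13, 6.83 and 6.59 to 7.43, 7.44 and 7.43. With the mean of both probe sets taken for the gene, the difference was 0.85 (SE 0.14) and passed the test at an adjusted p of 0.0426 (limma).

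Grm4 encodes mGlu4, a presynaptic receptor that lowers transmitter release from granule neuron axons. Grm4 had log2 values of 6.68, 5.04 and 6.05 in untreated Ifnb+/+ and 6.04, 6.01 and 6.10 in untreated Ifnb-/- arrays. Its Ifnb+/+ values spread to both sides of the Ifnb-/- values, and replicate 1, the lowest Ifnb+/+ array for Grin2b, Gria2, Gria3, Gria4 and Grik2, was the highest for Grm4. The difference was 0.13 (SE 0.33).

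**Figure D2:**
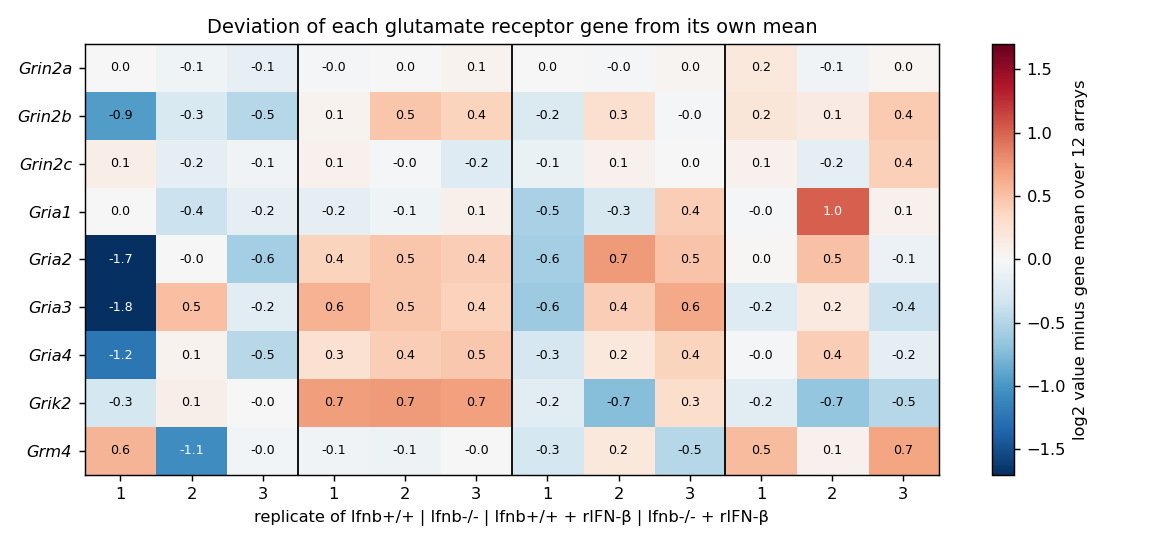
Log2 value of each receptor gene minus that gene's mean over the 12 arrays (color and printed number), with genes in rows and arrays in columns, 3 replicates per group between the black lines. Untreated Ifnb+/+ replicate 1 has the lowest values of Grin2b, Gria2, Gria3 and Gria4 of all arrays, and Grik2 is highest on the 3 untreated Ifnb-/- arrays.

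Over the 9 members, the median deviation from the gene's own mean was -0.30, -0.07 and -0.17 on the untreated Ifnb+/+ arrays. It was 0.07, 0.42 and 0.38 on the untreated Ifnb-/- arrays. Without untreated Ifnb+/+ replicate 1, 4 of the 9 members were still higher at an unadjusted p under 0.05, against 3.17% of all genes. Leaving out untreated Ifnb+/+ replicate 2 instead gave 5 members past the adjusted threshold (Grin2b, Gria2, Gria3, Gria4 and Grik2), where 21.1% of all genes were then called. The microglia markers, 17 of 18 measured, had mean levels of 6.80 to 7.03 on the untreated Ifnb+/+ arrays and 6.37 to 6.54 on the untreated Ifnb-/- arrays. Tyrobp averaged 9.42 and 9.17 in these groups. Of the 17, Fcgr1 (-1.30, adjusted p = 0.0115) and Trem2 (-1.03, adjusted p = 0.0164, limma) were called lower, beside 0.115% of all genes called. At an unadjusted p under 0.05, 8 were lower and none higher, against 12.8% of all genes lower and 8.4% higher. Granule neuron markers had mean levels of 8.10 to 8.20 and of 8.30 to 8.40 in the same groups. The part of either list in the receptor differences was not tested.

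The next comparison asked how rIFN-β altered receptor expression in Ifnb+/+ neurons. No member was called (limma, adjusted p of 0.138 to 0.980), beside 3.14% of all genes. At an unadjusted p under 0.05, Grin2b, Gria2 and Gria4 were higher and none lower, against 8.81% of all genes higher and 11.1% lower. Only Grin2b had groups that did not overlap, against 6.67% of all genes higher without overlap. The median difference of the 9 genes was 0.08, and -0.03 over all genes.

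Grin2b had log2 values of 6.71, 7.23 and 6.94 in treated Ifnb+/+ arrays, all above the untreated ones, a difference of 0.56 (SE 0.19, adjusted p = 0.138, limma). Gria2 had values of 9.02, 10.33 and 10.08, a difference of 0.98 (SE 0.40, adjusted p = 0.203, limma). Gria4 had values of 8.69, 9.16 and 9.36, a difference of 0.64 (SE 0.28, adjusted p = 0.233, limma). For Gria2 and Gria4 the lowest treated array lay among the untreated ones. The other 3 probe sets of Grin2b had differences of -0.29, 0.01 and 0.29, and the other 2 of Gria4 of -0.27 and 0.11, each with overlapping groups. Without untreated Ifnb+/+ replicate 1 the 3 differences were 0.37, 0.50 and 0.30, and no member had an unadjusted p under 0.05. The same count of 0 was found without treated Ifnb+/+ replicate 2, and without untreated Ifnb+/+ replicate 2 the count was 4, where 13.4% of all genes were higher.

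Gria3 had values of 5.65, 6.68 and 6.91 with rIFN-β in Ifnb+/+ and a difference of 0.65 (SE 0.47). Without untreated Ifnb+/+ replicate 1 the Gria3 difference was -0.01 (SE 0.32), and by its other probe set, on all arrays, 0.06 (SE 0.39). Grik2 had values of 6.81, 6.28 and 7.30 and a difference of -0.14 (SE 0.22). One treated Grik2 value lay below and one above all untreated Ifnb+/+ values. The second probe set of Grik2 had values of 6.80, 7.40 and 6.77, overlapping the untreated ones, and a difference of the other sign, 0.47 (SE 0.19, unadjusted p = 0.0305, adjusted p = 0.214, limma over all probe sets). Gria1 had values of 5.96, 6.24 and 6.93 (difference 0.05, SE 0.28) and Grm4 of 5.80, 6.29 and 5.62 (difference -0.02, SE 0.33). Differences of Grin2a and Grin2c were 0.08 (SE 0.10) and 0.02 (SE 0.15).

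Markers of other cells also differed between these arrays. Of the 17 microglia markers measured, 8 were called lower with rIFN-β in Ifnb+/+, beside 3.14% of all genes called. The mean levels of the 17 were 6.80 to 7.03 on the untreated and 6.13 to 6.46 on the treated arrays. Of 10 GABAergic interneuron markers 8 were measured, with a median difference of -0.47 and mean levels of 6.73 to 7.37 and 6.64 to 6.99. None of these 8 was called, while 3 had a lower value and 1 a higher one with an unadjusted p below 0.05. Of all genes, 11.1% were lower and 8.81% higher there. The part of these cells in the receptor differences was not tested.

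With rIFN-β in Ifnb-/- neurons, Grik2 fell by 1.15 on the log2 scale (SE 0.22, adjusted p = 0.0224, limma), to a level 2.22 times lower. It was the 1 member called of 9, beside 1.67% of all genes called and 0.742% called lower. Its log2 values were 7.72, 7.72 and 7.70 without and 6.83, 6.35 and 6.52 with rIFN-β. The groups did not overlap, and the 3 treated values lay within the range of the treated Ifnb+/+ arrays. The call was lost when any 1 untreated Ifnb-/- array, or treated Ifnb-/- replicate 2 or 3, was left out, with adjusted p-values of 0.0741 to 0.108 and a difference of -1.16 to -1.04. The 8 GABAergic interneuron markers had mean levels of 7.04 to 7.05 on the untreated and 6.19 to 6.78 on the treated Ifnb-/- arrays. None was called, and 4 were lower at an unadjusted p under 0.05, where 2657 of all 18193 genes were lower or higher. Their median difference was -0.53, beside 0.07 over all genes. Gad1, which makes GABA, averaged 10.86 and 9.97. Of 12 oligodendrocyte markers 11 were measured, with mean levels of 6.19 to 6.31 and 5.93 to 6.34. Mobp, a myelin gene, was the 1 called, and it fell by 1.16 (adjusted p = 0.00227, limma), while Mbp averaged 10.61 and 9.98. Of the 17 microglia markers, Laptm5 was called lower (-0.83, adjusted p = 0.0252) and Fcgr1 higher (1.04, adjusted p = 0.00606, limma). At an unadjusted p under 0.05, 6 of them were lower and 1 higher. The 13 astrocyte and Bergmann glia markers had a median difference of 0.51, and none was called. The part of these cells in the Grik2 difference was not tested.

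The second probe set of Grik2 had values of 7.43, 7.44 and 7.43 without and 7.12, 6.95 and 7.01 with rIFN-β in Ifnb-/-, again without overlap. Its difference was -0.41 (SE 0.19, adjusted p = 0.343, limma over all probe sets). The gap between the probe sets of Grik2 within an array, the one read for the gene minus the second, was 0.28 ± 0.01 (SD, n = 3) in untreated Ifnb-/- and -0.47 ± 0.16 in treated Ifnb-/- arrays. In Ifnb+/+ arrays it moved in the same direction, from 0.41 ± 0.15 untreated to -0.19 ± 0.84 treated, with a wide spread. This gap was chosen after the values were seen and is a description.

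**Figure D3:**
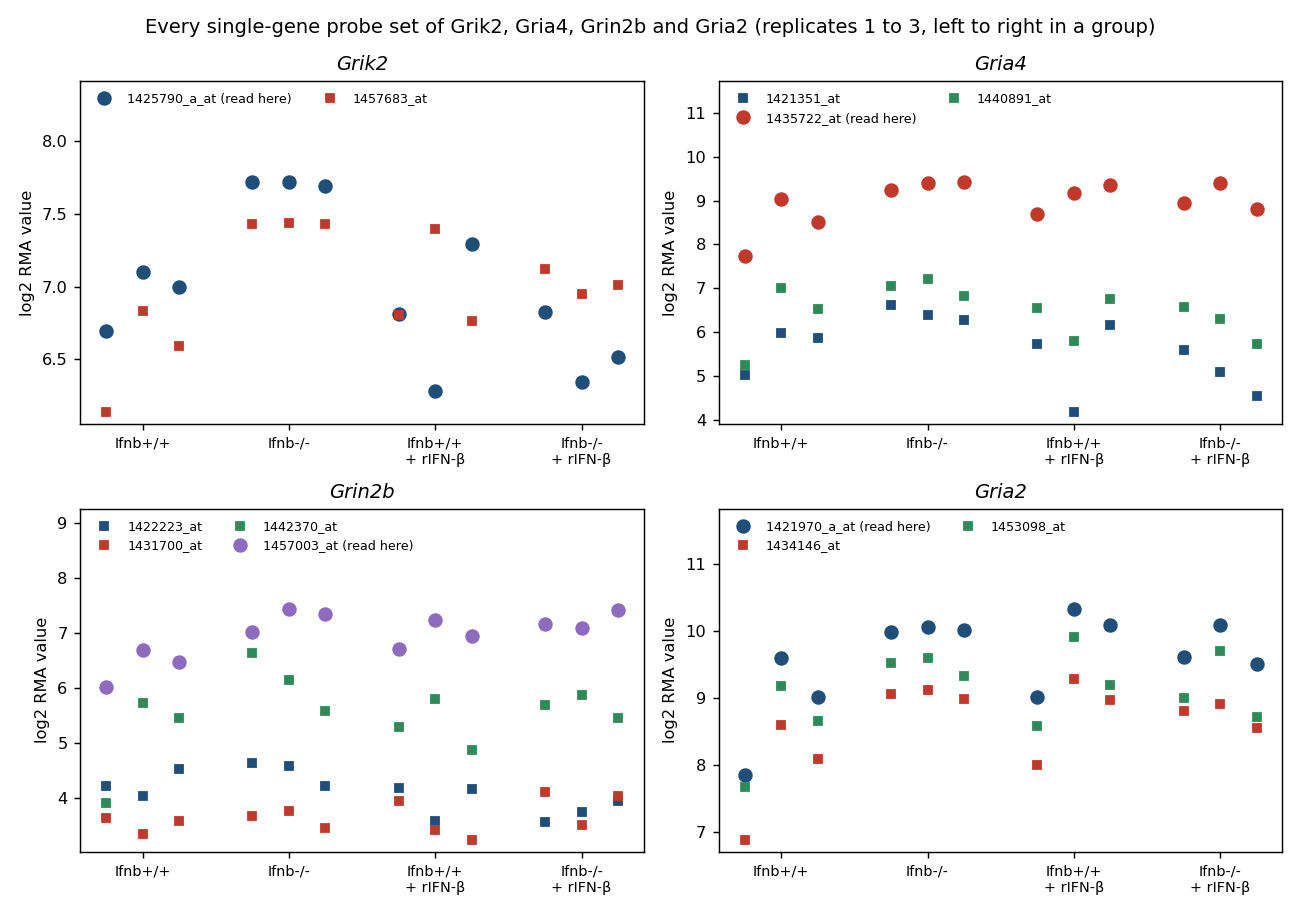
Log2 RMA values (vertical axis) of every single-gene probe set of Grik2, Gria4, Grin2b and Gria2, with the 12 arrays by group on the horizontal axis and replicates 1 to 3 from left to right. Large circles are the probe set read for the gene and small squares the others. Both Grik2 probe sets are highest on the untreated Ifnb-/- arrays by group mean, and all 3 Gria2 probe sets are lowest on untreated Ifnb+/+ replicate 1.

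Gria3 was lower without overlap in treated than in untreated Ifnb-/- arrays, and with Grik2 it made 2 of 9 members, against 12.6% of all genes. Its values with rIFN-β were 6.04, 6.44 and 5.90, a difference of -0.63 (SE 0.47, adjusted p = 0.552, limma), and its other probe set was lower without overlap as well, by -0.75. Grm4 was the 1 member higher without overlap, against 20.3% of all genes. Its values with rIFN-β were 6.64, 6.17 and 6.77, a difference of 0.48 (SE 0.33, adjusted p = 0.514, limma).

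Gria2 had values of 9.62, 10.10 and 9.50 with rIFN-β in Ifnb-/-, a difference of -0.28 (SE 0.40), with 1 treated array above the untreated ones. Gria4 had values of 8.94, 9.40 and 8.81 and a difference of -0.31 (SE 0.28) by its brightest probe set. The other 2 probe sets of Gria4 were lower without overlap, by -1.36 (SE 0.44, adjusted p = 0.171) and -0.83 (SE 0.39, adjusted p = 0.344, limma over all probe sets). The gap of the brightest probe set over the dimmest was 2.92 ± 0.28 (SD, n = 3) without and 3.98 ± 0.54 with rIFN-β in Ifnb-/-, also a description. In Ifnb+/+ the gap was 2.81 ± 0.22 without and 3.72 ± 1.11 with rIFN-β.

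Grin2b had values of 7.16, 7.10 and 7.41 with rIFN-β in Ifnb-/- and a difference of -0.04 (SE 0.19). A dimmer probe set of Grin2b was lower without overlap, from 4.64, 4.58 and 4.21 to 3.58, 3.76 and 3.95, a difference of -0.72 (SE 0.19, adjusted p = 0.102, limma over all probe sets). The probe sets of Grin2b and Gria4 thus gave different values for 1 gene, and which part of the transcript each reads was not analysed here.

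Gria1 had values of 6.49, 7.53 and 6.59 with rIFN-β in Ifnb-/-, a difference of 0.41 (SE 0.28). Replicate 2 lay about 1 above the rest, and its second probe set showed the same array at 7.63 beside 6.25 and 6.36. The 13 astrocyte and Bergmann glia markers measured had their highest mean level on this array, 9.17, beside 8.04 and 8.08 on the other treated Ifnb-/- arrays. The next highest mean of these markers, 8.86, was on treated Ifnb+/+ replicate 3, where Gria1 was 6.93 by the probe set read for the gene. Its second probe set was 6.37 on that array and 6.39 on untreated Ifnb+/+ replicate 1. All other arrays had astrocyte marker means of 7.95 to 8.46. Fabp7 averaged 10.40 in untreated and 11.54 in treated Ifnb+/+, and 11.20 and 11.76 in Ifnb-/- arrays. The part of astrocytes in the Gria1 values was not tested.

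With rIFN-β on both genotypes, none of the 9 members was called (limma, adjusted p of 0.988 to 0.996), beside 0.0605% of all genes, and no member had groups without overlap, against 4.64% of all genes higher and 3.47% lower. None had an unadjusted p under 0.05, against 1.88% of all genes higher and 3.06% lower. The differences of Ifnb-/- from Ifnb+/+ were 0.63 (SE 0.33) for Grm4, 0.49 (SE 0.28) for Gria1 and 0.26 (SE 0.19) for Grin2b. Those for Gria2, Gria4 and Grik2 were -0.07 (SE 0.40), -0.02 (SE 0.28) and -0.23 (SE 0.22), and that for Gria3 was -0.29 (SE 0.47). The median difference was 0.04, beside 0.03 over all genes. At an unadjusted p under 0.05, all 17 interferon-stimulated genes measured were lower in treated Ifnb-/- arrays, and 1 was called. Their median difference was -1.35, and their mean levels were 7.93 to 9.60 on treated Ifnb+/+ and 7.30 to 7.79 on treated Ifnb-/- arrays. The part of this difference in the receptor values was not tested.

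**Figure D4:**
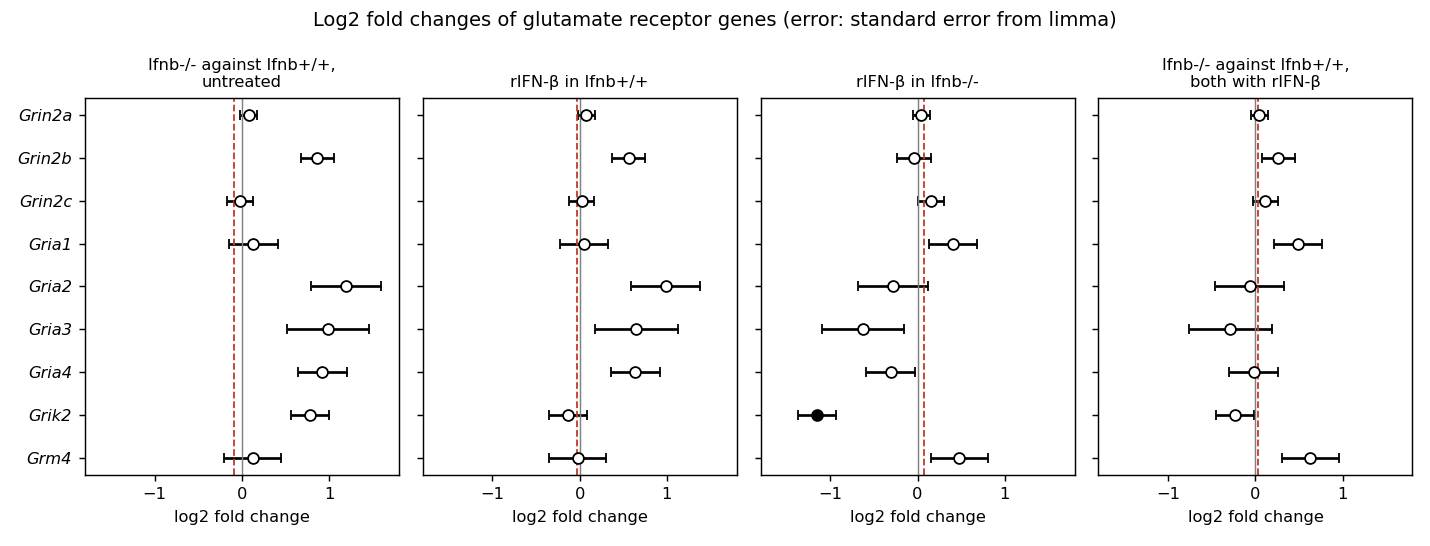
Log2 fold changes (horizontal axis) of the 9 receptor genes in 4 comparisons, with the standard error from limma as error bars. The filled circle marks the 1 call at an adjusted p under 0.05, Grik2 with rIFN-β in Ifnb-/-, and the dashed red line is the median of all genes.

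The difference between the rIFN-β effects of the genotypes was tested as an interaction. It was called for none of the 9 members, beside 0.022% of all genes. At an unadjusted p under 0.05 it was negative for Grik2 (-1.01, SE 0.31), Gria2 (-1.27, SE 0.57), Gria4 (-0.95, SE 0.40) and Grin2b (-0.60, SE 0.27), all at adjusted p-values of 0.323 or 0.324 (limma), where 5.21% of all genes were negative. The interaction shares its untreated arrays with the comparisons above. Without untreated Ifnb+/+ replicate 1, Grik2 alone of these genes kept an unadjusted p under 0.05 (-0.90, SE 0.31), against 3.11% of all genes.

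Lists of other genes of glutamate signaling were read the same way. Only Slc1a4, a neutral amino acid transporter that carries serine, was called in any of these lists. With rIFN-β in Ifnb-/- it rose by 0.84 (SE 0.16, adjusted p = 0.0252, limma), from a mean of 6.34 ± 0.14 to 7.18 ± 0.21 (SD, n = 3), and it was 6.96 ± 0.33 in untreated and 7.06 ± 0.07 in treated Ifnb+/+ arrays. The other 10 genes measured of the 14 listed as glutamate transporters and synthesis enzymes were not called in any comparison. Between untreated genotypes, 1 gene of this list had a higher and 4 a lower value in Ifnb-/- with an unadjusted p below 0.05, among them Slc1a4 (-0.62, SE 0.16) and Slc1a1, a neuronal glutamate transporter (-0.34, SE 0.14). Of all genes 8.4% were higher and 12.8% lower there.

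Of other NMDA receptor subunits, 3 of 3 were measured. Grin2d averaged 4.48 ± 0.15 (SD, n = 3) without treatment in Ifnb+/+ and 4.11 ± 0.07 in Ifnb-/- arrays (-0.37, SE 0.12, adjusted p = 0.185, limma). Of other kainate and delta subunits 5 of 6 were measured. Between untreated genotypes Grik1 was higher in Ifnb-/- (0.83, SE 0.32) and Grik4 lower (-0.41, SE 0.16), both at low levels and adjusted p-values of 0.202 and 0.206 (limma).

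Of other metabotropic receptors, 5 of 7 were measured. Grm5, which couples to calcium release, averaged 7.03 ± 0.21 without treatment in Ifnb+/+ and 7.81 ± 0.07 in Ifnb-/- arrays (0.79, SE 0.22, adjusted p = 0.157, limma). Grm2, which couples to inhibition of cyclic AMP synthesis, was 5.21 ± 0.28 and 4.50 ± 0.08 in the same groups (-0.71, SE 0.19, adjusted p = 0.156, limma). With rIFN-β in Ifnb+/+ the differences were 0.57 for Grm5 and -0.58 for Grm2, and neither was called.

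The auxiliary subunits of AMPA and kainate receptors, which set their trafficking and gating, were measured for 24 of 25 genes. Their median difference between untreated genotypes was -0.01. Neto2, a kainate receptor auxiliary subunit, came closest to a call with rIFN-β in Ifnb+/+, at 8.68 ± 0.28 without and 9.34 ± 0.26 with rIFN-β (0.66, SE 0.17, adjusted p = 0.0558, limma). Cacng3, an AMPA receptor auxiliary subunit, was 5.32 ± 0.22 and 4.50 ± 0.25 in the same arrays (-0.82, SE 0.23, adjusted p = 0.0801). Of 27 scaffold and trafficking genes measured of 30, 5 had a higher and 2 a lower value in untreated Ifnb-/- with an unadjusted p below 0.05, where 8.4% of all genes were higher and 12.8% lower, and their median difference was -0.04. Dlg2, the scaffold PSD-93, was 8.15 ± 0.21 and 8.90 ± 0.09 (0.75, SE 0.20, adjusted p = 0.154) and Dlgap1, which binds such scaffolds, 7.51 ± 0.17 and 8.02 ± 0.14 (0.51, SE 0.13, adjusted p = 0.153, limma).

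Among 19 measured of 21 genes for calcium and kinase signaling below glutamate receptors, 8 had a higher and 1 a lower value in untreated Ifnb-/- with an unadjusted p below 0.05, and the list's median difference was 0.29. Over all genes 8.4% were higher, 12.8% lower and the median difference was -0.09. Ppp3ca, the catalytic subunit of calcineurin, was 8.93 ± 0.47 and 9.73 ± 0.04 (0.81, SE 0.21, adjusted p = 0.150, limma). Gnai2, an inhibitory G protein subunit, was 8.89 ± 0.27 and 8.22 ± 0.07 (-0.67, SE 0.16, adjusted p = 0.139). Of the 7 genes for the serine co-agonist and RNA editing, Adar, an RNA-editing enzyme known to be interferon-induced, was 8.64 ± 0.17 without and 9.31 ± 0.45 with rIFN-β in Ifnb+/+ (0.67, SE 0.19, adjusted p = 0.0886, limma).

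The genes with the pattern most like Grin2b over the 12 arrays were Syne1, Baz1b and Ank2, with Pearson r of 0.945, 0.943 and 0.939 (Spearman rho of 0.769, 0.834 and 0.867). Without untreated Ifnb+/+ replicates 1 and 3, the arrays farthest from the median of Grin2b, r was 0.824, 0.816 and 0.810. For Grik2 they were Tmpo, Rsrp1 and Ndst3, with r of 0.964, 0.953 and 0.951 (rho of 0.972, 0.930 and 0.972), and 0.954, 0.928 and 0.921 without untreated Ifnb-/- replicates 1 and 2. These were the highest of all genes measured and share the arrays and their groups, so they are descriptions with no test.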

How the data were processed

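RNA of 12 CGN cultures, 3 per group, was hybridized to 1 Affymetrix mouse array each. Quantile normalization and RMA were run by the authors in Arraystar, and the deposited values are log2 intensities of 45037 probe sets. They were not normalized again. Probe sets with several gene symbols (932) or none (9160) in the array annotation were left out, and the single-gene probe set of highest mean over the 12 arrays stood for its gene, giving 18193 genes. Grin1 was not analysed here.

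Groups were taken from the labels. The fit of 4 group means over 12 arrays (limma 3.58.1 in R 4.3.3, 8 residual degrees of freedom, empirical Bayes) was adjusted by Benjamini-Hochberg over all genes of a comparison, and genes were called at an adjusted p under 0.05. The fit was tested on simulated data. Precision is limited by 3 arrays per group. The receptor genes, the 16 other lists and the alternatives were chosen with earlier results of these data known. Named in the text were all receptor genes and the 3 genes most like the receptor of smallest p. In the lists of glutamate signaling, genes called and up to 2 genes of smallest p per list and comparison were named. In the marker lists, genes among the 3 brightest and some of the genes called were named, so not every called marker appears by name. RefSeq sequences are of build GRCm38.p6. Alternatives covered probe set choice, a low-value filter at a mean of 5, normalization, array weights, variance prior, arrays in the fit, a replicate block, the t-test of the study's methods and leaving out each array. Leave-one-out counts at unadjusted p and the gaps between probe sets were added after the values were seen.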

Additional observations from a re-analysis of the deposited data

How the results depend on the processing

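The 1 receptor call, Grik2 with rIFN-β in Ifnb-/-, held with the mean of probe sets, the low-value filter, both other normalizations, array weights, another variance prior and the replicate block (adjusted p = 0.0328, limma). It was lost with the methods' t-test after adjustment (0 receptor genes called, adjusted p = 0.0544). In a fit of only the compared groups, 2 were called there, Gria3 being the second, beside 7.01% of all genes. The mean of probe sets gave 1 call between untreated genotypes, beside 0.143% of all genes. Array weights, whose fit did not converge, gave 6 calls between untreated genotypes, 3 and 4 with rIFN-β in Ifnb+/+ and Ifnb-/- and 6 for the interaction, where 59.8%, 30.8%, 28.1% and 34.6% of all genes were called. Leaving out 1 array gave 0 to 5 receptor calls between untreated genotypes, 0 to 3 and 0 to 1 with rIFN-β in Ifnb+/+ and Ifnb-/-, and 0 to 1 for the interaction. The 5, the 3 and the 1 for the interaction came without untreated Ifnb+/+ replicate 2, where 21.1%, 16% and 6.8% of all genes were called. At an unadjusted p under 0.05 the methods' t-test had 2, 0 and 2 receptor genes in the first 3 comparisons, against 4, 3 and 1 by limma, and 2206, 1469 and 3953 of all genes, against 3859, 3619 and 2657.

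Over all genes, calls between untreated genotypes were 21, with 10877 under array weights, 6 with the t-test and 0 to 3846 on leaving out 1 array. With rIFN-β in Ifnb+/+ they were 571, with 5611, 131 with only the compared groups, 0 with the t-test and 241 to 2905. With rIFN-β in Ifnb-/- they were 304, with 5117, 1276 with only the compared groups and 83 to 705. Between treated genotypes they were 11, with 385, 0 with only the compared groups, the replicate block or the t-test, and 0 to 203. For the interaction they were 4, with 6294, 2 with median centring, the low-value filter or every probe set, 0 with the replicate block, and 0 to 1237.

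Of 976 recomputed differences of single receptor genes, 46 had another sign, and in 4 of these the reported or the recomputed value had an unadjusted p under 0.05, all from other probe sets. The recomputed value passed for Grik2 with rIFN-β in Ifnb+/+ (0.47). Only the reported value passed for Gria4 (-0.27) and Grin2b (-0.29) in the same comparison and for the Grin2b interaction (0.24). The cause was not tested. Whether the replicate numbers pair the arrays was not settled. Deviations of same-numbered arrays correlated at -0.501 to 0.432 over 18 pairs, 5 of them above 0.1. Between untreated and treated arrays they correlated at 0.06 to 0.30 in Ifnb+/+ and at 0.05 to 0.07 in Ifnb-/-. Arrays of different numbers were not compared, so these values cannot decide it. The replicate block left the receptor calls at 0, 0, 1, 0 and 0 over the 5 comparisons.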
